A study of Rattus norvegicus with 196 samples.

Results

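Avp and Oxt are the transcripts of arginine vasopressin and oxytocin, and these 2 were followed among the 29188 rat transcripts counted in each library. They were identified by the name and transcript identifier given in the study's table of shared transcripts, as ENSRNOT00000028833 (Avp) and ENSRNOT00000028829 (Oxt), and every library listed both. The study compared male Long-Evans rats aged 2 months that received fluoxetine, a selective serotonin reuptake inhibitor, in drinking water at 18 mg/kg per day for 6 weeks (FT) with rats given plain drinking water (Sham). RNA was sequenced from 196 samples of 25 brain regions, 98 FT and 98 Sham. Each sample was a pool of tissue punches from 10 animals, so the spread between samples is a spread between pools. Most regions had 4 FT and 4 Sham pools, numbered 1, 3, 4 and 5, and an FT and a Sham pool with the same number were processed together and are called a pair. In mPoA, the medial preoptic area, 2 FT pools were at hand, and in Arc, the arcuate nucleus, 2 Sham pools, so that both regions had 2 pairs, numbers 4 and 5.

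Vasopressin and oxytocin are peptide hormones made from related precursors, each of which also carries a neurophysin, the carrier protein of the hormone. Large magnocellular neurons of the supraoptic and paraventricular nuclei of the hypothalamus make them and send them to the posterior pituitary for release into blood, where vasopressin limits water loss by the kidney and oxytocin drives milk ejection and uterine contraction. Smaller groups of vasopressin neurons lie in the suprachiasmatic nucleus, the bed nucleus of the stria terminalis (BNST) and the medial amygdala, and both peptides act in the brain on social behaviour and stress responses. No supraoptic punch is among the regions analysed here.

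The genes lie next to each other on rat chromosome 3, on opposite strands, with 0 annotated genes between them in the GRCr8 annotation. The 250 bases upstream of each start are printed because the pair are neighbours whose levels varied together over regions, as described later. They come from RefSeq in the GRCr8 build, at chr3:138235504-138235753 on the plus strand for Oxt and chr3:138248523-138248772 on the minus strand for Avp, and run 5′ to 3′ towards the start. Capitals mark matches on either strand to 4 motifs searched for, CACGTG (an E-box), TGACCT (a nuclear receptor half-site), TGACGT (a cAMP-response half-site) and TATAAA.
Oxt: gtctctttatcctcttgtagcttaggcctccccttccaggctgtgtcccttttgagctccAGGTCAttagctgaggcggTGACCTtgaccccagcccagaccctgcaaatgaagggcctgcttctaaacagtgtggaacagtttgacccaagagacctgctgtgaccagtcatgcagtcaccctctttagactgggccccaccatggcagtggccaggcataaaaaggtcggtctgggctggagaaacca
Avp: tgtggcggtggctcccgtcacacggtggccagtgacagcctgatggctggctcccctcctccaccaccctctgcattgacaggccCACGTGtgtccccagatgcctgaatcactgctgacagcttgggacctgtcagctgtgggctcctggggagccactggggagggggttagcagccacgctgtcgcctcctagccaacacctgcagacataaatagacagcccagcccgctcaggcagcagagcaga
Oxt held TGACCT at bases -171 to -166 and its reverse complement at -190 to -185, and Avp held CACGTG at -165 to -160. Neither window held TATAAA or TGACGT. Among 33469 rat promoter windows of this length, 14.1% held TGACCT, 5.59% CACGTG, 12.9% TATAAA and 6.95% TGACGT. A match is a run of letters and was not tested as a binding site. The genes are also paralogues with a near-identical neurophysin stretch. Neither how reads shared by both were assigned nor the strand setting of the counting is given in the sources used here. Part of either count may therefore belong to the other, and the size of that part was not measured.

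Between 4586 and 50893900 reads per library were counted on transcripts, and in the regions whose Avp and Oxt values are given one by one (LS, BLA and HB apart) the totals lay between 5334040 and 22938300. Levels are given as CPM, counts scaled to a common library size, after TMM scaling over all 196 libraries. The pools of replicate 3 stood apart from the rest, with a median total of 6309540 reads against 12604400 to 14186600 in the others and a median of 68.2% of their reads on their 50 most abundant transcripts against 28.3% to 34.8%. Avp in replicate 3 exceeded the mean of the other pools of the same group in 19 of 19 groups with a mean of at least 10 reads, by a median of 5.55 on the log2 CPM scale, and Oxt in 20 of 20 groups by a median of 6.87. On the scale of library totals the medians were 4.52 for Avp and 6.21 for Oxt. The mean of reads included replicate 3, so a group could enter through that pool alone. Oxt in Sham pools of the centromedial amygdala did so, with 2, 71, 2 and 7 reads. In such groups the direction was fixed by the filter. In the ventromedial and lateral hypothalamus every pool had at least 10 reads of both peptides, and replicate 3 was again the highest. FT and Sham were compared within pairs because of replicate 3 as well. Among 12 other neuropeptide transcripts, the same difference ran from -1.86 for Ghrl (ghrelin) to 4.76 for Ucn (urocortin), the latter over 3 groups.

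**Figure D1:**
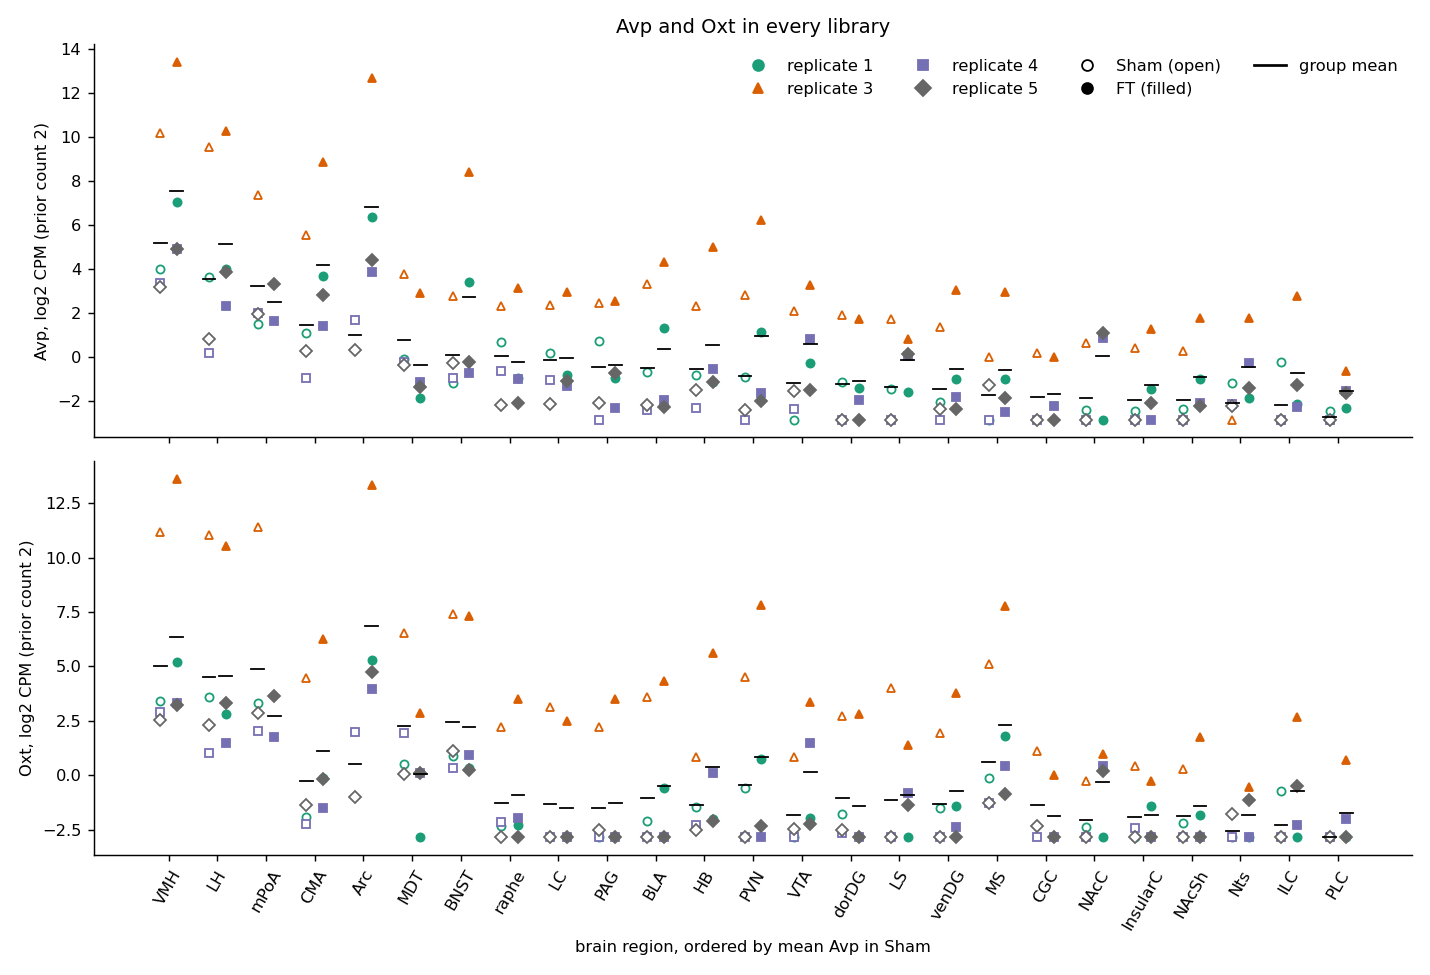
Level of Avp (top) and Oxt (bottom) in every library, as log2 CPM (prior count 2). The 25 regions are ordered by mean Avp in Sham. Open symbols are Sham and filled symbols FT pools, shape and colour give the replicate number, bars are group means, and replicate 3 lies above the others in the regions with most reads, with VMH at 1161 CPM of Avp in its Sham pool and 10860.5 CPM in its FT pool.

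Both peptides were highest in hypothalamic punches. In Sham pools of VMH, the ventromedial nucleus of the hypothalamus, Avp stood at 15.9, 1161, 10.1 and 8.97 CPM in replicates 1, 3, 4 and 5. These were the highest Avp levels of any region within each replicate number, and VMH also ranked first for Avp in all 4 FT replicates. LH, the lateral hypothalamus, followed with 12.5, 755, 0.986 and 1.64 CPM, and mPoA with 2.73, 166, 3.86 and 3.73 CPM. Within LH the pools of replicates 4 and 5 were several-fold lower than that of replicate 1, so LH and mPoA exchanged places between replicates. CMA, the centromedial amygdala and the first region outside the hypothalamus, had 1.98, 46.2, 0.372 and 1.06 CPM of Avp in Sham, from 31, 148, 10 and 30 reads. By mean log2 CPM the next were Arc (1.01), MDT, the mediodorsal thalamus (0.78), and BNST (0.10), against 5.18 in VMH. The Sham mean of Arc rests on replicates 4 and 5 alone and so lacks the high replicate 3 pool of the other regions. Within these replicates Arc was at 3.11 and 1.10 CPM of Avp against 0.372 and 1.06 CPM in CMA, and in replicate 4 it was also above LH. At the low end, Avp was listed at 0 reads in 3 of 4 Sham pools of both PLC, the prelimbic cortex, and ILC, the infralimbic cortex. A count of 0 allows up to 3 reads at the depth of a pool, so absence is not shown.

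For Oxt the same hypothalamic regions led, in another order. Oxt in Sham was 10.5, 2292, 7.45 and 5.62 CPM in VMH, 9.73, 2688, 3.90 and 7.19 CPM in mPoA, and 12.1, 2148, 1.88 and 4.87 CPM in LH. Mean log2 CPM was 5.01 in VMH, 4.90 in mPoA and 4.51 in LH, and VMH was highest within 1 of 4 Sham replicates and second within the other 3. On the CPM scale the mean was higher in mPoA (677 CPM) than in VMH (579 CPM). BNST (2.43), MDT (2.27) and MS, the medial septum (0.61), came next by this mean, followed by Arc (0.50) and CMA (-0.25). The mean of Arc lacks replicates 1 and 3, and in the replicates it shares with MS, Arc was the higher in both, at 3.82 against 0.271 CPM in replicate 4 and 0.367 against 0.277 CPM in replicate 5. In replicate 4 Arc also stood above BNST and MDT, and in replicate 5 below both. Oxt was listed at 0 reads in all 4 Sham pools of PLC. Along the order of all 25 regions, the ranges of 24 of 24 neighbouring regions overlapped for Avp and for Oxt, in Sham and in FT. The ranges are wide because of replicate 3, and they ignore that regions share replicate numbers. Within replicate numbers, VMH was above LH for Avp in 4 of 4 Sham replicates.

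Avp and Oxt were each other's nearest match over regions. Among 15314 transcripts with a mean of at least 1 CPM in some region, Oxt ranked first for Pearson's r with Avp over the 25 Sham region means of log2 CPM (r = 0.89), and Avp ranked first for Oxt. All points share their libraries, and replicates 1, 3, 4 and 5 taken singly gave 0.68, 0.91, 0.90 and 0.91 over 23 to 25 regions. After Oxt, the named transcripts most like Avp were Slc6a11, a GABA transporter of astrocytes (0.75), Stk32b (0.74), Heyl (0.74) and APEG3 (0.74). For Oxt they were Stk32b (0.69), Slc6a11 (0.68), APEG3 (0.66) and Gpr165 (0.66). Of these, Heyl and APEG3 also had their highest Sham level in VMH, at 32.3 and 124 CPM on average. Only transcripts that the study's table names could be named here. In FT region means the r of Avp and Oxt was 0.92, and Npvf (0.72) and Hcrt (0.72), peptide transcripts of the dorsomedial and lateral hypothalamus, were the named transcripts next to Oxt for Avp.

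**Figure D2:**
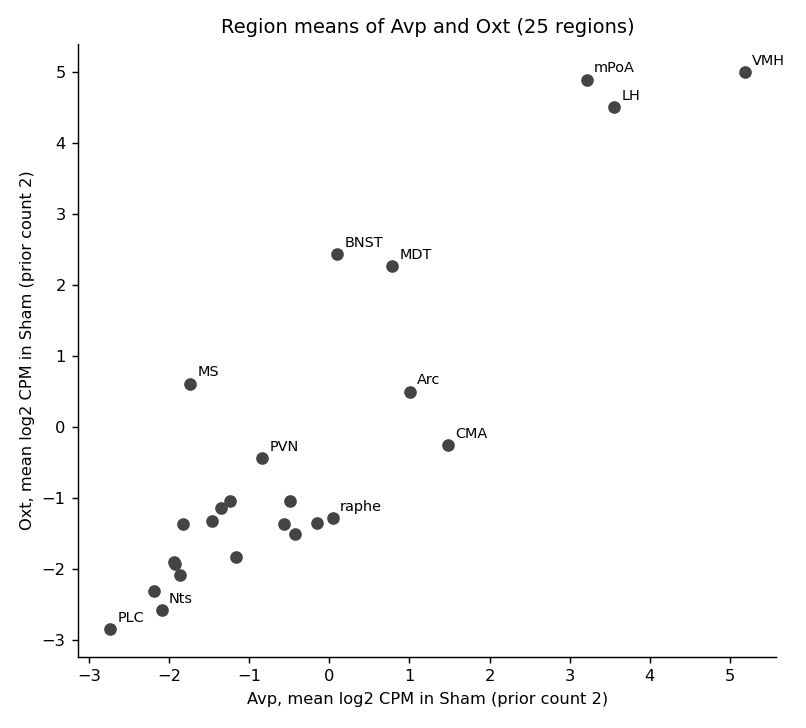
Mean log2 CPM (prior count 2) of Avp against Oxt in Sham for 25 regions, 1 point per region. VMH, LH and mPoA lie at the upper right, CMA lies to the Avp side at 1.48 against -0.25, and MS to the Oxt side at -1.74 against 0.61.

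The libraries labelled PVN held little of either transcript. In Sham, Avp had 6, 25, 0 and 1 reads there and Oxt 8, 83, 0 and 0 reads, and the region ranked 13 of 25 for Avp and 9 of 25 for Oxt. The abbreviation is spelled out in the study's region table as the paraventricular nucleus of the thalamus, and the libraries held thalamic transcripts at high levels. Tcf7l2, a transcription factor of thalamic neurons, averaged 407 ± 71.4 CPM (SD, n = 4) in Sham PVN, second to 774 ± 242 CPM in MDT, and Slc17a6, the vesicular glutamate transporter of thalamic and hypothalamic neurons, ranged from 212 to 357 CPM around a mean of 288 CPM. Markers of choroid plexus (Ttr, Kcnj13 and Sostdc1) summed to 3440 to 23392 CPM in Sham PVN and 6651 to 99182 CPM in FT. PVN values are therefore not read as values of the hypothalamic paraventricular nucleus.

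Each region was then tested for FT against Sham with edgeR, with the replicate number as a block. A transcript was called where its log2 fold change (log2FC) lay at least 0.32 from 0, in either direction, and its p, adjusted over all transcripts tested in that region, was at most 0.1. Avp and Oxt each passed the filter on low counts in 8 of 25 regions and could not be tested in the other 17. Avp was called higher in FT in 2 of its 8 regions, CMA and Arc, and Oxt in 1 of 8, Arc. The background was 0.00742% of transcripts called in CMA and 24.6% in Arc, where 13.7% of transcripts were called higher. At an unadjusted p under 0.05, Avp differed in 6 regions, higher in 5, and Oxt in 5, higher in 4. Over all transcripts, such a p was held by 4767 of 14464 in Arc, 2728 of 14886 in mPoA and 2338 of 13466 in LH. It was held by 1908 of 13358 in VMH and 1516 of 13481 in CMA. The lowest share in these regions was 1019 of 13793, in the lateral septum. In a punch, more cells that make a peptide and more of its RNA per cell cannot be told apart.

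**Figure D3:**
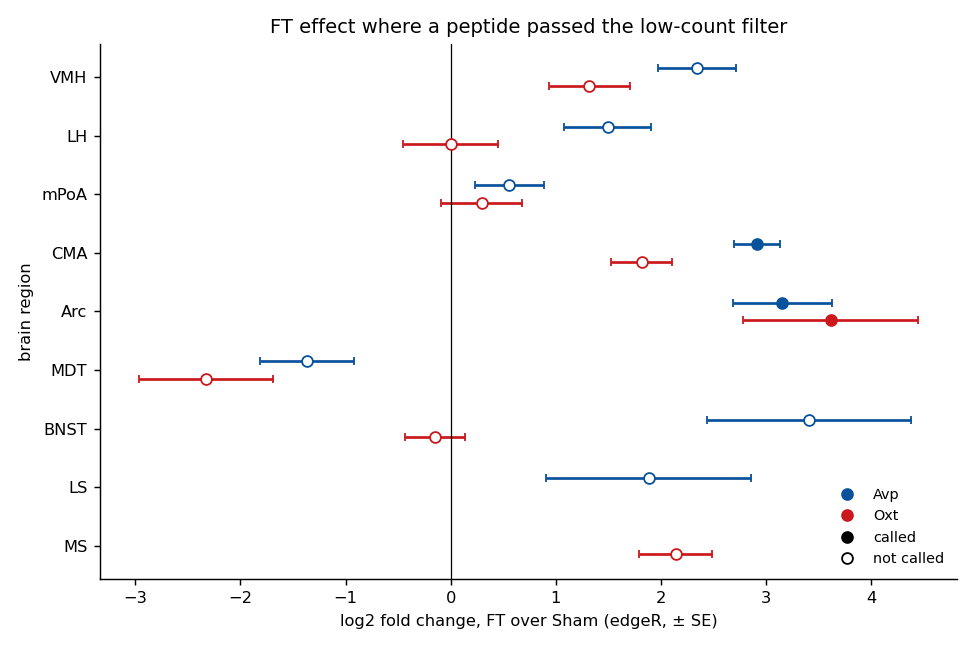
log2FC of FT over Sham with its standard error for Avp (blue) and Oxt (red) in the regions where each passed the filter. Filled points were called, which were Avp in CMA and Arc and Oxt in Arc, and MDT is the region where both values lie below 0.

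The single transcript called in CMA among 13481 was Avp, at a log2FC of 2.91. Its level was 1.98, 46.2, 0.372 and 1.06 CPM in Sham and 12.9, 462, 2.49 and 6.89 CPM in FT, for replicates 1, 3, 4 and 5. FT exceeded Sham in 4 of 4 pairs, by 2.36 to 3.32 on the log2 scale, while the spread between replicates was larger than this difference and the groups overlapped when pairs were ignored. The log2FC had an SE of 0.22 (edgeR, adjusted p = 0.00709). Reads behind it were 31, 148, 10 and 30 in Sham and 164, 1702, 59 and 130 in FT. Without replicate 3 the log2FC was 2.73 with an adjusted p of 0.119, and without replicate 4 it was 2.94 with an adjusted p of 0.151, so the call rested on these pairs. Without replicate 1 or 5 in turn Avp was still called, in fits with 38 of 14016 and 1 of 12718 transcripts called. Over the 4 leave-outs the log2FC ran from 2.73 to 2.996.

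Oxt in CMA was far lower, at 0.127, 22.2, 0.0744 and 0.247 CPM in Sham, where 3 pools had 2 to 7 reads. FT pools had 0.786, 77.9, 0.211 and 0.742 CPM, and again 4 of 4 pairs were higher in FT. The log2FC of 1.81 ± 0.29 was not called by edgeR (adjusted p = 0.279), whereas DESeq2 gave 1.88 with an adjusted p of 0.00218, with 1.48% of transcripts called there. Without replicate 3, Oxt in CMA failed the filter on low counts. Of 35 marker transcripts of other cell types and neighbouring structures, 32 were tested in CMA and none was called, with 1516 of all transcripts below an unadjusted p of 0.05. Hcrt (hypocretin) was at 0.0353 to 3.12 CPM in Sham CMA and 0.0786 to 0.543 CPM in FT. Vip, a peptide of the suprachiasmatic nucleus and of cortical interneurons, was at 19.4 to 40.8 CPM in Sham and 9.77 to 38.6 CPM in FT. Choroid plexus markers summed to 46.4 to 295 CPM in Sham and 12.3 to 95.6 CPM in FT. Telencephalic neuron markers (CAMK2A, Nrgn and Neurod1) summed to 117 to 1971 CPM in Sham and 250 to 4014 CPM in FT. This sum joins transcripts that went different ways over regions. The log2FC was above 0 in 23 of 25 regions for Nrgn, in 7 for Neurod1 and in 1 for CAMK2A. The part of these marker differences in the Avp result in CMA was not tested.

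In VMH, the region with the highest Sham mean log2 CPM of both peptides, Avp was at 131, 10860.5, 29.6 and 29.9 CPM in FT against 15.9, 1161, 10.1 and 8.97 CPM in Sham. Every FT pool exceeded its Sham partner, by 1.54 to 3.23 on the log2 scale. Oxt was at 36.9, 12511, 10.0 and 9.26 CPM in FT against 10.5, 2292, 7.45 and 5.62 CPM in Sham, again higher in 4 of 4 pairs, by 0.42 to 2.45. The larger differences of both peptides were those of replicates 1 and 3. The log2FC was 2.35 ± 0.37 for Avp (unadjusted p = 0.000174) and 1.32 ± 0.38 for Oxt, both with an adjusted p of 0.291, and neither was called. edgeR called 0 of 13358 transcripts in VMH (0.0%), with 1908 at an unadjusted p under 0.05, while DESeq2 called 550 of 22010 (2.5%) and among them Avp (2.41, adjusted p = 1.13e-07) and Oxt (1.38, adjusted p = 0.0199). Of the 12 other neuropeptide transcripts, Hcrt and Npvf, named after their values were seen, lay in the same direction without being called. Vip, by contrast, was at 1.15 to 7.16 CPM in Sham VMH and 1.26 to 3.68 CPM in FT. Hcrt had a log2FC of 1.53 ± 0.27 and Npvf of 1.03 ± 0.26, both with an adjusted p of 0.291. Hcrt ranged from 9.59 to 755 CPM in Sham VMH and from 34.5 to 1757 CPM in FT, and Npvf from 7.43 to 38.3 and from 19.8 to 109 CPM. None of 33 tested markers was called, and their part in the Avp and Oxt values was not tested.

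**Figure D4:**
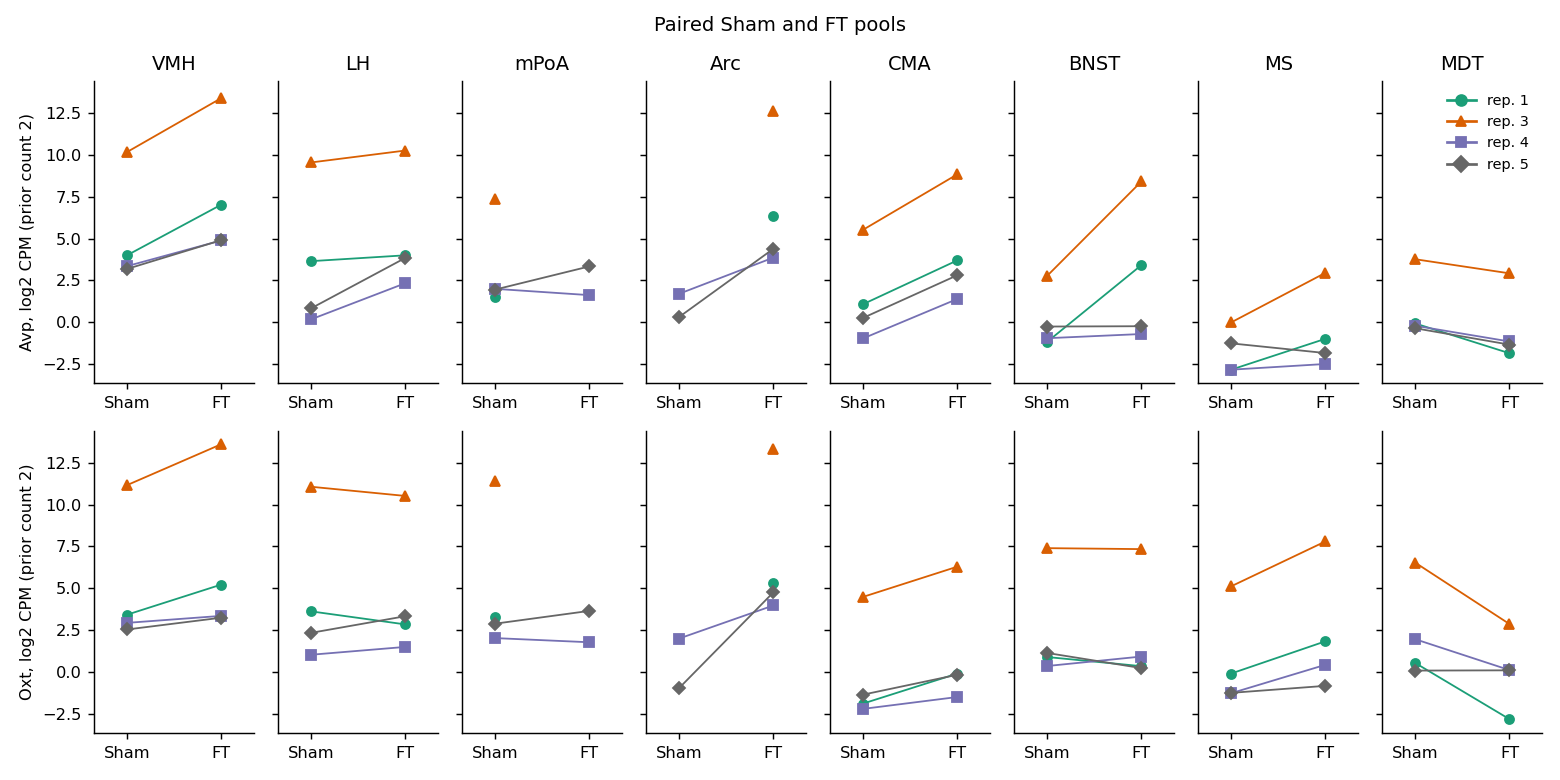
Sham and FT pools of each pair joined by a line, as log2 CPM with a prior count of 2, for Avp (top row) and Oxt (bottom row) in 8 regions; single points are pools without a partner (mPoA, Arc). In CMA and VMH all 4 lines rise for both peptides, and in MDT all 4 lines fall for Avp.

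In Arc, the Sham pools of replicates 4 and 5 held 3.11 and 1.10 CPM of Avp and the FT pools of the same numbers 14.4 and 20.8 CPM. Oxt was at 3.82 and 0.367 CPM in Sham and at 15.5 and 26.7 CPM in FT. The groups did not overlap for either peptide. The unpaired FT pools, replicates 1 and 3, held 82.5 and 6451 CPM of Avp and 39.1 and 10491 CPM of Oxt, and the block leaves them out of the estimate of the effect. The same-numbered pools of Arc did not deviate together over all transcripts (r of -0.11 and 0.05), so the pairing in Arc rests on the study's methods and not on these values. The log2FC was 3.15 ± 0.47 for Avp (adjusted p = 0.0193) and 3.62 ± 0.83 for Oxt (adjusted p = 0.0435). These calls were among 3551 made on 14464 transcripts in Arc (24.6%), and 16 of 34 tested markers were called, 7 higher and 9 lower. With 2 pairs, the fit could learn little of each transcript's own spread, so its p-values lean on the spread over all transcripts. DESeq2 called 3.79% of transcripts in Arc. It gave 3.20 for Avp (adjusted p = 0.00874) and 4.05 for Oxt (adjusted p = 0.0729).

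The markers that moved in Arc included some of its own neurons and of its neighbours. Slc6a3, the dopamine transporter, had a log2FC of -5.47, and Th, tyrosine hydroxylase of dopamine neurons, of -1.07. Hcrt had 3.06 and Ttr, the transthyretin of choroid plexus, 1.95. Slc6a3 was at 13.8 and 27.0 CPM in Sham Arc and at 0.433 to 3.98 CPM in FT, and Hcrt at 0.938 and 1.17 CPM in Sham and 8.17 to 61.7 CPM in FT. Npvf, by contrast, was at 95.9 and 96.2 CPM in Sham and 68.7 to 149 CPM in FT and was not called. The part of these shifts in the Avp and Oxt values was not tested.

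In LH, Avp was higher in FT in every pair and Oxt in 2 of 4. Avp was at 12.5, 755, 0.986 and 1.64 CPM in Sham and 15.9, 1238, 4.90 and 14.2 CPM in FT, higher in 4 of 4 pairs by 0.35 to 3.02. The large differences were those of replicates 4 and 5. Oxt was at 12.1, 2148, 1.88 and 4.87 CPM in Sham and 6.98, 1468, 2.66 and 9.85 CPM in FT, lower in replicates 1 and 3 and higher in 4 and 5. The log2FC was 1.49 ± 0.41 for Avp (adjusted p = 0.151) and 0.00 ± 0.45 for Oxt (adjusted p = 0.999), beside 13 called transcripts (0.0965%). Without replicate 1, Avp in LH had a log2FC of 1.94 (adjusted p = 0.0650) and was called, among 260 of 13772 transcripts called. The log2FC was 1.26 without replicate 4 (adjusted p = 0.447) and 0.985 without replicate 5 (adjusted p = 0.317). Those fits called 0 transcripts. The striatal neuron markers Adora2a (1.63) and Ppp1r1b (1.11) were called higher in LH, and their part in the Avp values was not tested.

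In mPoA the 2 pairs gave opposite signs for both peptides. Avp was at 3.86 and 3.73 CPM in the Sham pools of replicates 4 and 5 and at 2.94 and 9.99 CPM in FT, and Oxt at 3.90 and 7.19 CPM in Sham and 3.255 and 12.3 CPM in FT. The pair of replicate 4 was lower and that of replicate 5 higher in FT, and the log2FC was 0.56 ± 0.32 for Avp (adjusted p = 0.378) and 0.29 ± 0.39 for Oxt (adjusted p = 0.790). Meanwhile 9.59% of transcripts were called in mPoA, and 10 of 34 tested markers, among them Npvf at 0 to 0.153 CPM in Sham and 2.10 and 51.8 CPM in FT.

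BNST holds vasopressin neurons of its own. There, Avp was at 0.304, 6.71, 0.376 and 0.697 CPM in Sham and 10.5, 343, 0.474 and 0.708 CPM in FT. The difference thus lay in replicates 1 and 3, with 5 and 20 reads in Sham against 179 and 1541 in FT, and was near 0 in replicates 4 and 5. The log2FC of 3.41 ± 0.97 was the second largest of the 16 estimates and was not called (adjusted p = 0.348), with 0.0589% of transcripts called. It was 1.78 without replicate 3 and ran up to 4.32 without replicate 5. Choroid plexus markers summed to 40.9 to 591 CPM in Sham BNST and 6.74 to 61.5 CPM in FT. Thalamus and glutamate neuron markers summed to 56.0 to 163 and 27.2 to 57.8 CPM. Other sums lay higher in FT, with overlapping ranges. Telencephalic neuron markers were at 36.5 to 396 CPM in Sham and 84.8 to 636 CPM in FT, and striatal neuron markers at 104 to 338 and 169 to 592 CPM. The part of these markers in the Avp values was not tested. Oxt in the same libraries was at 1.70, 168, 1.13 and 2.04 CPM in Sham and 1.12, 162, 1.74 and 1.02 CPM in FT, with a log2FC of -0.15 ± 0.29. Avp in the lateral septum (LS), a target of vasopressin fibres from BNST, had a log2FC of 1.88 ± 0.98 (adjusted p = 0.694, with 0.029% called). The reads behind it were 8 in Sham and 44 in FT in all. FT was higher in 2 of 4 pairs, replicates 4 and 5, where Sham had 0 reads, and lower in replicates 1 and 3. Over the 3 leave-outs with an estimate, the log2FC of Avp in LS ran from 0.82 without replicate 5 to 2.73 without replicate 1.

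In MS, Oxt was at 0.789, 34.5, 0.271 and 0.277 CPM in Sham and 3.39, 222, 1.19 and 0.417 CPM in FT. All 4 pairs were higher in FT, by 0.42 to 2.68, and the log2FC of 2.14 ± 0.35 missed the threshold (adjusted p = 0.113), with 0.0602% of transcripts called. It passed with median-ratio size factors (2.17, adjusted p = 0.0968, with 0.0904% called). It also passed without replicate 1 (2.24, adjusted p = 0.0689, with 22 of 13553 transcripts called). Without replicate 4 (2.12, adjusted p = 0.423) or 5 (2.41, adjusted p = 0.118) it did not pass, and without replicate 3 Oxt failed the filter. Choroid plexus markers in MS summed to 1085 to 5177 CPM in Sham and 40.4 to 850 CPM in FT, and the part of this shift in the Oxt values was not tested.

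Among the regions where both peptides were tested, MDT was the one in which both had a log2FC below 0. Avp was at 0.811, 13.5, 0.724 and 0.640 CPM in Sham and 0.137, 7.46, 0.310 and 0.255 CPM in FT, lower in 4 of 4 pairs by 0.84 to 1.78. Oxt was at 1.297, 92.0, 3.71 and 0.909 CPM in Sham and 0, 7.09, 0.931 and 0.920 CPM in FT. The log2FC was -1.36 ± 0.45 for Avp (adjusted p = 0.541) and -2.33 ± 0.64 for Oxt (adjusted p = 0.494), and neither was called. Leaving out 1 replicate moved Oxt between -3.17 (without replicate 5) and -1.79 (without replicate 3). The 1 transcript called in MDT (0.00761%) was Cga, the common alpha subunit of pituitary glycoprotein hormones, with a log2FC of -6.41 ± 0.60, at 1.346 to 14.1 CPM in Sham and 0 to 0.124 CPM in FT. Choroid plexus markers summed to 97.9 to 3530 CPM in Sham MDT and 22.1 to 81.7 CPM in FT. Cga marks the pars tuberalis, which lies at the base of the hypothalamus, and its part and that of the choroid plexus in the Avp and Oxt values was not tested.

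Both peptides failed the filter in PVN, where nearly all reads came from replicates 1 and 3. There, Avp went from 6, 25, 0 and 1 reads in Sham to 37, 303, 3 and 2 in FT, and Oxt from 8, 83, 0 and 0 to 28, 919, 0 and 1. DESeq2, which keeps such transcripts, called both higher there (3.002, adjusted p = 0.000153, for Avp and 2.58, adjusted p = 0.00179, for Oxt) with 2.75% of transcripts called by it, against 0 of 13881 by edgeR, where 2080 had an unadjusted p under 0.05. DESeq2 called Avp in 4 regions, CMA, Arc, VMH and PVN, and Oxt in 6, the same 4 with MS and HB, the habenula, beside 3.79% of transcripts in Arc, 2.6% in MS and 1.0% in HB. The counts in replicates 4 and 5 of PVN cannot show a difference at this depth. Over regions with at least 10 reads in the pair, FT exceeded Sham for Avp in 6 of 11 regions in replicate 1, 17 of 20 in replicate 3, 9 of 11 in replicate 4 and 9 of 10 in replicate 5. For Oxt the counts were 4 of 7, 13 of 19, 8 of 10 and 9 of 10, so replicate 1 had the most even split for both.

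Whether the FT effect differed between regions was asked in 1 joint fit of the hypothalamic mPoA, LH, VMH and Arc together with PVN, whose label, as given above, stands for a thalamic nucleus. None of the 10 region pairs differed for Avp or Oxt at an adjusted p of 0.1, and the lowest adjusted p was 0.846, for mPoA against PVN. The largest difference was that of Oxt between LH and Arc, -3.78 ± 0.95 in log2FC (unadjusted p = 0.000948, adjusted p = 1). For Avp it was mPoA against Arc, -2.65 ± 0.92 (unadjusted p = 0.0102, adjusted p = 1). Unadjusted p-values fell below 0.05 in 3 of the 10 region pairs for Avp and 5 for Oxt, so the calls in Arc do not show that Arc differed from the other 4 regions. In a comparison chosen after seeing the data, 6 regions were each set against MDT. The 6 were picked among the regions where Avp was higher in FT in every pair, and MDT because Avp was lower in every pair. Avp was also higher in every pair of PVN, PLC, NAcSh (the nucleus accumbens shell) and venDG (the ventral dentate gyrus). Those regions were not set against MDT. Oxt differed between Arc and MDT by 6.11 ± 1.08 (edgeR, adjusted p = 0.0301 over 16255 transcripts). None of the other 11 differences of Avp or Oxt passed, the lowest adjusted p among them being 0.395. The p-values do not account for a choice made by direction in the same libraries, so they are no independent test of a difference.

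Both peptides were read in the same library, so that their ratio does not depend on the library's scaling factor. In VMH the log2 ratio of Avp to Oxt reads (each with 2 added) averaged 0.18 in Sham and 1.21 in FT, a difference of 1.03 ± 0.19 (SD, n = 4 pairs). The 4 pairs lay between 0.78 and 1.23, so that replicate 3, with its far higher levels, showed a shift close to that of the others. In LH the ratio went from -0.97 to 0.58, a difference of 1.54 ± 0.43, and in CMA from 1.87 to 3.13, a difference of 1.255 ± 0.37, each higher in 4 of 4 pairs. For these 3 regions the exact two-sided sign-flip permutation test gave p = 0.125, which is the smallest that 4 pairs allow, and 0.417 after Benjamini-Hochberg adjustment over 10 regions. In BNST the mean difference of 2.88 ± 2.96 came from 2 pairs, and in Arc (-0.78 ± 1.37) and mPoA (0.25 ± 0.53), with 2 pairs each and a smallest p of 0.5, the pairs had opposite signs. PVN, MDT, BLA (the basolateral amygdala) and HB had differences of 0.48, 1.04, 0.15 and -0.65, each with pairs of both signs.

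**Figure D5:**
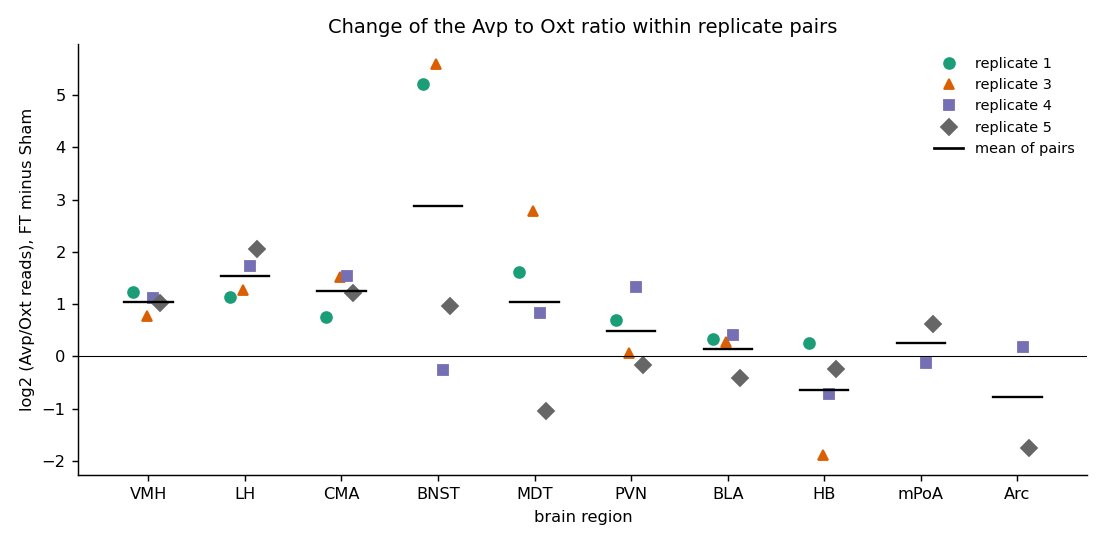
Difference between FT and Sham in the log2 ratio of Avp to Oxt reads for each replicate pair (points) and the mean over pairs (bars) in the 10 regions where both averaged at least 10 reads. All 4 pairs lie above 0 in VMH, LH and CMA, with means of 1.03, 1.54 and 1.255.

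Across regions the differences of Avp and Oxt within a pair went together in part. Of 41 pairs with at least 10 reads of each peptide, 33 had the same sign for both, and the r of the log2 differences was 0.71. The points share libraries and, within a region, tissue, and no p is given. Avp had the larger log2 difference in 28 of the 41 pairs.

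The machinery that makes and removes these peptides was read from 9 named transcripts. Among them are Pcsk2, a convertase that cleaves neuropeptide precursors, the convertase inhibitor Pcsk1n, the secretory granule proteins Chga and Vgf, carboxypeptidase D (Cpd) and LNPEP, the aminopeptidase also called oxytocinase that degrades oxytocin and vasopressin. All 9 were tested in every region. In CMA, VMH, LH and PVN none of the 9 was called by edgeR, which called 1, 0, 13 and 0 transcripts there in all. In Arc, where 24.6% of all transcripts were called, 4 were called higher and 4 lower, and in mPoA, where 9.59% were, 2 and 2, with medians of the 9 log2FC values of -0.40 and -0.29 against 0.02 and 0.01 over all transcripts tested.

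LNPEP was called lower in 3 of 25 regions and its log2FC was below 0 in 25 of 25, from -1.44 to -0.44. In Arc it was -1.25 ± 0.28 (adjusted p = 0.0426) and in mPoA -1.44 ± 0.39 (adjusted p = 0.0137), whereas in VMH it was -1.41 ± 0.33 (adjusted p = 0.291), in LH -1.15 ± 0.27 (adjusted p = 0.126), in PVN -1.38 ± 0.51 and in CMA -1.02 ± 0.36, none of these 4 called. Vgf was called higher in 2 of 25 regions, with 1.78 ± 0.36 in Arc and 1.24 ± 0.27 in mPoA, and its log2FC was above 0 in 25 of 25. Pcsk2 was called lower in the same 2, with -0.74 ± 0.16 in Arc and -1.08 ± 0.28 in mPoA, and was -0.19 ± 0.22 in CMA. PCSK1N was called higher in 3 regions and Pcsk1n in 2. Beside these counts, and that of Gna11 below, stand the calls over all transcripts. They were 24.6% in Arc, 9.59% in mPoA, 828 of 12550 in the raphe and 511 of 12277 in Nts, the solitary tract nucleus. In every other region edgeR called at most 61 transcripts. A single sign over regions was not particular to LNPEP and Vgf. Pcsk2, Cpd, Gna11 and the astrocyte marker Kcnj10 were also below 0 in 25 of 25, and the astrocyte marker Slc7a10 above 0 in 25 of 25. The share of all transcripts with 1 sign in every region was not counted. Regions share replicate numbers, so they are not independent results. The table that names these transcripts holds only ones the study called in at least 2 regions, so their counts are not independent of these samples.

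Gnaq and Gna11, the G proteins through which the V1a, V1b and oxytocin receptors signal, were tested in 25 regions, and edgeR called Gna11 lower in 3 regions and called Gnaq in 0, where Gnaq had a log2FC from -1.36 to 0.03. Gna11 had a log2FC of -2.29 in Arc and -2.96 in mPoA. The receptor transcripts themselves have no name in the table and were not analysed here. Of 12 other neuropeptide transcripts, none was called in CMA, VMH, LH or PVN, regions with 0 to 13 calls by edgeR in all. In Arc, against 24.6% of all transcripts, 10 were tested, 4 called higher (Cck, Gal, Hcrt and Sst) and 1 lower (Cartpt), and in mPoA, against 9.59%, 3 higher and 2 lower among 10. The median log2FC of the 10 was -0.25 in Arc and 0.14 in mPoA, and that of the 8 tested in CMA was -0.19, where Avp had 2.91.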

How the data were processed

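RNA from pooled punches of 25 brain regions was sequenced (76 bp reads), and per the study's methods FT and Sham samples of one replicate number were processed in parallel. The authors aligned reads with STAR to rn5 and deposited raw read counts per Ensembl transcript from HTSeq, with FastQC for quality, and gave no versions in the sources used here. Rows without a transcript (ambiguous reads, a median of 5.52% of all rows of a count file summed) were left out of library sizes. How FT and Sham pairs were matched was checked: same-numbered pools deviated together with r above 0.1 in 92 of 95 pairs (median 0.64, range -0.11 to 0.86), and the replicate number was a block. The 3 exceptions were both pairs of Arc and 1 of the 2 of mPoA, so the pairing there rests on the methods alone.

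Each region was fitted with edgeR 4.0.16 (R 4.3.3) by its quasi-likelihood test, with TMM scaling, a filter at 10 counts per sample and 15 in all, and replicate plus treatment as terms. The SE was the log2FC divided by the square root of F. p-values were adjusted (Benjamini-Hochberg) over all transcripts of the region. Replicate 1 of CGC, the cingulate cortex, was left out. Levels are CPM, or log2 CPM with a prior count of 2. DESeq2 1.42.0, median-ratio size factors, no filter, no block, other priors and leaving out each replicate were alternatives. Scripts were tested on simulated data. Motifs and likeness used Python 3.11.15, pandas 2.3.3, numpy 2.4.6 and scipy 1.17.1, and figures matplotlib 3.10.9.

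Avp, Oxt and all gene lists were chosen with earlier results of these data known. The genes named were the members, the 5 named transcripts most like each over regions, and members of the lists of peptide processing, G proteins, other neuropeptides and cell type markers: LNPEP, Pcsk2, Vgf and up to 4 per list called in the most regions. Other markers and neuropeptides given by name were chosen after their values were seen. Names came from a study table of 1845 named transcripts, which holds only transcripts the study called in at least 2 regions. The limit of 3 reads for a count of 0 covers counting error only. Each ± value is an SE from edgeR, or for levels and ratios an SD over pools or pairs. One marker result in LH is not reported here.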

Additional observations from a re-analysis of the deposited data

Results flagged for a closer look

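In 39 groups of 4 pools with a mean of at least 10 reads, tested for a pool far from the others, 11 had one, where chance gives about 1 in 20 groups. In the 11 groups the gap to the nearest pool exceeded Dixon's critical value on the log2 CPM scale. Replicate 3 was the pool far from the others in 10 of the 11. For Avp these were Sham mPoA (166 CPM), Sham MDT (13.5 CPM), Sham VMH (1161 CPM) and FT HB (31.5 CPM). For Oxt they were Sham BNST (168 CPM), Sham mPoA (2688 CPM), Sham VMH (2292 CPM), Sham CMA (22.2 CPM), FT BNST (162 CPM) and FT Arc (10491 CPM). The 11th was replicate 1 of FT NAcC, the nucleus accumbens core, with 0 CPM of Avp.

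The FT effect on Oxt differed between Arc and MDT by 6.11 in log2FC, by a joint edgeR fit chosen after seeing the data. Both regions were picked for the direction of their Avp pairs in the same libraries, so the fit is no independent test. Oxt was higher in FT in 2 of 2 pairs of Arc and in 1 of 4 pairs of MDT.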

How the results depend on the processing

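Without the replicate block no call was made (0 regions for Avp and 0 for Oxt). The log2FC was then 9.74 for Avp and 10.45 for Oxt in Arc and 3.36 for Avp in CMA, and it turned for Avp in mPoA (-2.86), Oxt in mPoA (-6.57), Oxt in BNST (0.0723) and Oxt in mPoA minus LH (-5.95). In mPoA and Arc the unblocked fit compares groups with unequal numbers of replicate 3 pools. Without the low-count filter Avp was called higher in 7 regions and Oxt in 7. Among the regions of the main test this added Avp in BNST (3.40), LH (1.48) and VMH (2.35). It also added Oxt in CMA (1.91), MS (2.24) and VMH (1.32), with Oxt in MDT called lower (-2.32). Calls over all transcripts were then 430 of 23142 in BNST, 1062 of 25147 in LH and 136 of 22010 in VMH. They were 258 of 21705 in CMA, 852 of 21964 in MS and 334 of 23497 in MDT, each above the count with the filter. DESeq2 called Avp in 4 regions and Oxt in 6, adding Avp in VMH (2.41) and Oxt in CMA (1.88), MS (2.14) and VMH (1.38), and put Oxt in LH at 0.0172. Median-ratio size factors called Oxt in 2 regions, adding MS (2.17), and put Oxt in LH at 0.0104. VMH ranked 2 for Oxt in FT samples and by library totals.

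Leaving out each replicate gave 2.73 to 2.996 for Avp in CMA, 0.99 to 1.94 for Avp in LH, 1.71 to 1.90 for Oxt in CMA, 2.12 to 2.41 for Oxt in MS, 1.78 to 4.32 for Avp in BNST, 0.82 to 2.73 for Avp in LS, -3.17 to -1.79 for Oxt in MDT and -0.35 to 0.26 for Oxt in LH, which was above 0 without replicate 1 (0.26) or replicate 3 (0.23). Avp was called in 0 to 4 regions and Oxt in 0 to 3, most without replicate 1 (4 and 3), and VMH ranked 1 to 2 for Oxt, 2 without replicate 4. mPoA and Arc could not be fitted without replicate 4 or 5, where 1 pair is left. A joint fit of all 25 regions was not run. The cause of these changes was not tested. Low read counts limit Oxt in CMA and both peptides in PVN.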
